A study of Mus musculus with 8 samples.

Results

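Klf6 was silenced in immature oligodendrocytes (iOL), and the genes whose transcript level differed from control cells were described here. All 112 rows of the iOL comparison were taken, of 337 distinct rows in the tables of both stages of the study. The other stage was oligodendrocyte progenitors (OLP), with 275 rows. Each row is a gene locus, or in 6 of the 112 cases a locus that names several genes.

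The cells were primary C57BL/6 mouse OLP, panned from the cerebral cortex of pups in the first postnatal week. They were grown with PDGF-AA at 10 ng/ml and bFGF at 20 ng/ml. They were nucleofected, that is electroporated to deliver nucleic acid, with siRNA to Klf6 (siKlf6) or with non-targeting siRNA (NT), and both iOL groups were then exposed to 40 ng/ml of the thyroid hormone T3 for 18 h. The study's methods describe plating cells into differentiation medium for the T3 step. The OLP groups received the same siRNAs and no T3. Each of the 4 groups held 2 cultures, 8 in all.

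The table gave a single FPKM value per condition (fragment counts corrected for the length of the transcript and the size of the library), pooled over the cultures by the authors. The spread between cultures and the depth of the libraries were therefore unknown, and no test was run here. Every one of the 112 rows had been selected by the authors' own test of the same contrast, so the differences below describe selected genes. A gene outside the table is called not listed, which says nothing of its level. In cultures, fewer cells of a type and less RNA per cell cannot be told apart.

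Klf6 is a zinc finger transcription factor of the Krüppel-like family, which acts on GC-rich promoter sequences. In the oligodendrocyte lineage, T3 drives progenitors out of the cell cycle into differentiation, during which Sox10 turns on the myelin program and the cell surface is rebuilt for contact with axons. The comparison asked which transcripts depend on Klf6 while this step is under way.

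Klf6 itself had no row in iOL, and how far it was silenced there could not be read from the table. In the OLP groups, given the same siRNAs, Klf6 was at 38.6 FPKM in NT and 20.0 FPKM in siKlf6. The study also reports quantitative PCR on progenitor cultures given its Klf6 siRNAs. In iOL, no member of a list of 26 Klf/Sp factors was listed, and neither was any of 21 gp130 pathway genes or 17 importins. None of 24 apoptosis and stress genes and none of 25 cell cycle genes was listed. The study names Kpna1 (importin-α5) and Il6st (gp130) among its regulated genes, and these had no row in iOL either. Both had a row in OLP, Il6st from 25.0 to 8.63 FPKM and Kpna1 from 25.1 to 13.6 FPKM. Of the same lists, 7 gp130 pathway genes and 1 importin were listed in OLP. For Kpna1 the study reports regulation by RNA sequencing at both stages, and lower levels by quantitative PCR in silenced iOL. The rows used here thus differ from the study's published lists, whose counts of iOL and shared transcripts are smaller.

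The identity of the cells could be checked only in part. Of 6 genes that mark the oligodendrocyte lineage, Sox10 alone was listed, at 42.1 FPKM in NT and 25.9 FPKM in siKlf6. Of 14 genes of myelinating oligodendrocytes, Cldn11 alone was listed, and of 10 genes of newly formed oligodendrocytes none was. Olig1, Olig2 and Mbp were among the markers without a row, so their levels are unknown.

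Rows that name a microRNA held the largest difference in each direction. There were 7 such rows, and RefSeq held mature sequences for 6 of the 7 microRNAs. These are shown to identify the small RNAs that the rows name, with the seed (bases 2 to 8, which pair with target messages) in capitals. Coordinates are from GRCm38.p6, the build of the RefSeq sequences.
mmu-miR-345-5p (chr12:108836989-108837010, plus strand): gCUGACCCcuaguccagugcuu
mmu-miR-345-3p (chr12:108837027-108837048, plus strand): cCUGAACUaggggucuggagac
mmu-miR-704 (chr6:47803590-47803610, minus strand): aGACAUGUgcucugcuccuag
mmu-miR-30c-5p (chr1:23291714-23291736, plus strand): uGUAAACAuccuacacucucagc
mmu-miR-30c-2-3p (chr1:23291754-23291775, plus strand): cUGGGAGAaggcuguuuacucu
mmu-miR-1839-5p (chr7:81529919-81529940, plus strand): aAGGUAGAuagaacaggucuug
mmu-miR-24-1-5p (chr13:63301213-63301235, plus strand): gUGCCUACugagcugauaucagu
mmu-miR-24-3p (chr13:63301251-63301272, plus strand): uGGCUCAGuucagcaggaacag
mmu-miR-147-5p (chr2:122640814-122640837, plus strand): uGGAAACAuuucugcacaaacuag
The 9 mature sequences had 9 distinct seeds, so none of these loci shared a seed with another. Mir1907 was the other microRNA named.

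The row of 2010111I01Rik (an aminopeptidase gene) and Mir24-1 was at 1.51 FPKM in NT and 44.4 FPKM in siKlf6, a log2 difference of 4.18. All log2 differences here are siKlf6 over NT after adding 1 FPKM to both values, which shrinks the difference of weakly expressed genes. The row of 2900076A07Rik, a long noncoding RNA, and Mir1839 went from 8.02 to 98.6 FPKM (3.47). The row of AA467197 and Mir147 went from 0.368 to 11.6 FPKM (3.20), and that of Mir30c-2 alone from 0.532 to 6.10 FPKM (2.21). These were the highest 4 of all 112 differences.

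In the other direction, the row of Mir345 and the mitochondrial carrier gene Slc25a47 had the lowest difference of all, at 24.0 FPKM in NT against 3.46 FPKM after silencing (-2.49). The row of Mir1907 and Trps1, a GATA-type transcriptional repressor, went from 16.3 to 6.81 FPKM (-1.15, with -1.47 in OLP), and that of Mir704 and Pdia4, an endoplasmic reticulum disulfide isomerase, from 79.4 to 49.9 FPKM (-0.66). In the NCBIM37 annotation Mir147 lay inside AA467197 and Mir704 inside Pdia4, each on the strand of its host. Mir345 lay 14060 bases from Slc25a47. The value of such a row belongs to the whole locus and is not a level of the mature microRNA, and FPKM of a transcript as short as Mir30c-2, annotated at 84 bases, is uncertain.

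Across the 112 rows, 51 were lower and 61 were higher in siKlf6. At least a 1.5-fold difference was reached by 35 lower rows (31.2% of all rows) and 42 higher rows (37.5%), and at least a 2-fold difference by 6 lower (5.36%) and 8 higher rows (7.14%). The median absolute log2 difference was 0.63. Lower and higher rows had medians of similar size, -0.62 and 0.64.

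The rows on either side differed in their NT level. Direction is itself read against NT, so a comparison of NT levels builds in part of this contrast, and siKlf6 levels were not compared. The median NT level was 14.3 FPKM among lower rows and 2.69 FPKM among higher rows. In NT, 20 of the 61 higher rows were below 1 FPKM, against 1 of the 51 lower rows, and 7 higher rows were at 20 FPKM or more, against 22 lower rows. The authors' selection acts on these levels too, and its part in the contrast was not tested.

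**Figure D1:**
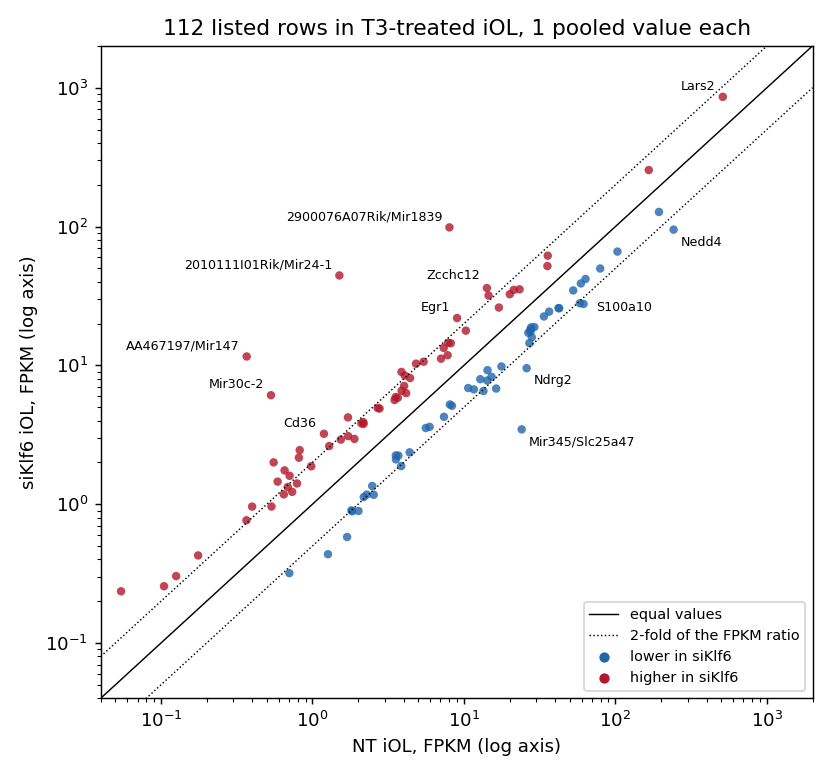
FPKM in NT (x axis) against siKlf6 (y axis) for the 112 rows of the iOL comparison, both on log axes, with 1 pooled value per condition. The 5 rows farthest from the line of equal values name a microRNA, and most other rows lie close to the dotted 2-fold lines, with the higher rows (red) reaching further down the scale than the lower rows (blue).

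Among rows with a single gene, at least 1 FPKM in both conditions and a locus of at least 500 bp, 9 lower and 10 higher genes with the largest differences were examined. This filter kept 78 rows, 40 lower and 38 higher. The lower genes were Ndrg2, Nedd4, S100a10, Gpr37l1, Mthfd2l, Mmd2, Cxcl14, Acsl4 and Cldn11, with differences from -1.35 to -0.79. The higher genes were Zcchc12, Egr1, Apln, Nrgn, Pcp4, Cd36, Sel1l3, Fbln2, Adm and Pcp4l1, with differences from 1.29 to 0.81. The lower set holds 4 genes grouped with glial membrane proteins and receptors (Ndrg2 among them), 2 metabolic genes and 3 of other groups. The higher set holds 3 small proteins with an IQ motif (a sequence that can bind calmodulin) and 3 secreted or vascular surface proteins. It also holds the transcription regulators Zcchc12 and Egr1, the matrix gene Fbln2 and Sel1l3.

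**Figure D2:**
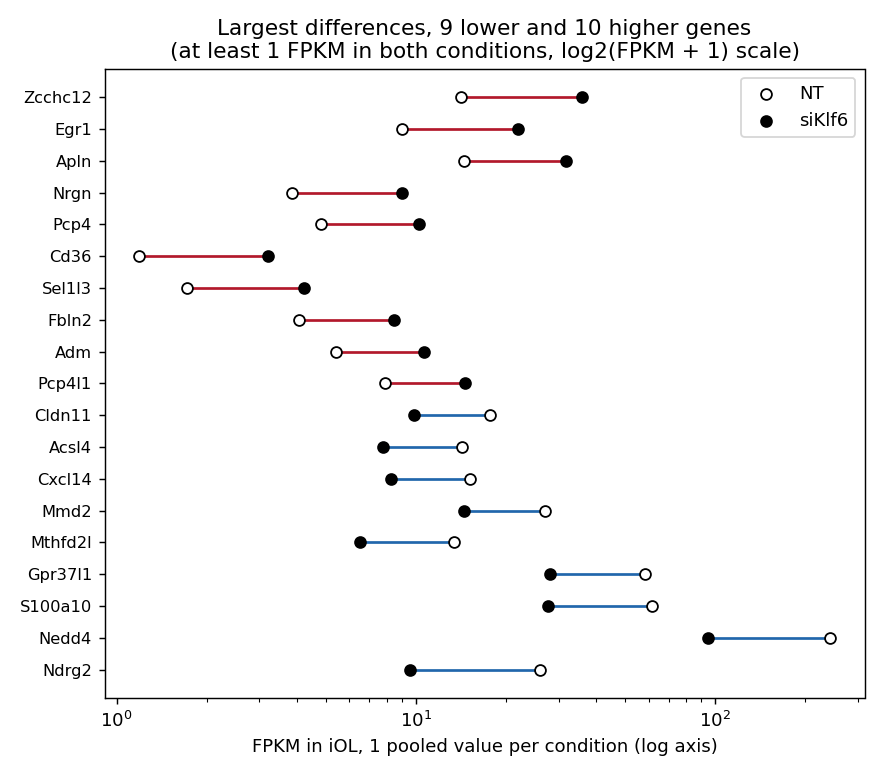
FPKM in NT (open circles) and siKlf6 (filled circles) for the 9 lower and 10 higher genes with the largest differences, on a log axis, with 1 pooled value per condition. Nedd4 spans the highest levels, from 242 to 95.0 FPKM, and Cd36 the lowest, from 1.19 to 3.21 FPKM.

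The 112 rows were sorted by function into 11 groups after their values had been seen, so the groups order the description and are not evidence of a pathway. In 4 groups most rows were higher, these being extracellular matrix, secreted and vascular surface proteins, calcium and calmodulin proteins, and rows with no assigned function. In 5 groups most rows were lower, these being glial membrane proteins and growth factor receptors, transcription and RNA regulators, metabolism and protein handling, vesicle release and trafficking, and the ubiquitin pathway. The cytoskeleton and the channel groups were mixed. Over all 112 rows, 51 were lower and 61 were higher, with a median of 0.36.

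**Figure D3:**
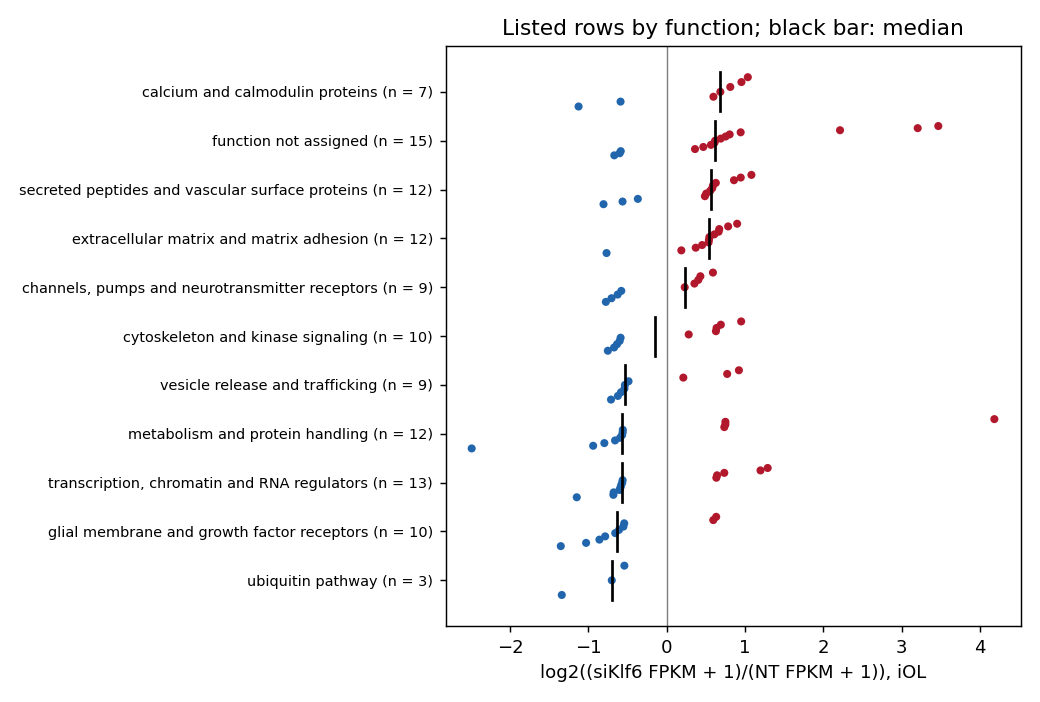
Log2 difference of siKlf6 over NT in iOL (x axis) for each of the 112 rows, by function group (y axis, with the number of rows), each point being a row and each black bar a group median. Medians run from -0.70 in the ubiquitin pathway to 0.68 in calcium and calmodulin proteins, and the 12 matrix rows lie above 0 with a single exception.

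The group of glial membrane proteins and growth factor receptors was mostly lower in siKlf6, 8 of 10 rows beside 51 of all 112, with a median of -0.63. The label is loose, since the group also holds Ndrg2, which is not a surface protein, and receptors that are not particular to glia. Cldn11, the tight junction protein of the myelin sheath, was at 17.7 FPKM in NT and 9.83 FPKM in siKlf6 (-0.79). Plxnb3, a semaphorin receptor, went from 8.33 to 5.12 FPKM (-0.61), Dcc, a netrin receptor, from 8.08 to 5.23 FPKM (-0.54), and the membrane protein Emp2 from 3.55 to 2.10 FPKM (-0.55). Erbb3, the neuregulin receptor, which was named after its values had been seen, went from 1.27 to 0.436 FPKM (-0.66). Megf10, a phagocytic receptor, was the reverse, at 2.17 FPKM in NT and 3.79 FPKM in siKlf6 (0.59), as was the contactin Cntn6, at 2.17 and 3.90 FPKM (0.63). Over a list of 38 adhesion and guidance receptors, 6 were listed, 3 lower and 3 higher (Cntn6, Megf10 and the junction protein Cxadr), with a median of 0.02.

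Genes that astrocytes express strongly included Ndrg2 and Gpr37l1, which had some of the largest lower differences, and Ttyh1, which did not. Ndrg2 was at 25.9 FPKM in NT and 9.55 FPKM in siKlf6 (-1.35). It lies on chromosome 14 at 52524946 to 52533163 (minus strand, NCBIM37). Gpr37l1, an orphan G protein-coupled receptor, went from 58.3 to 28.0 FPKM (-1.03). Ttyh1, a chloride channel family protein, went from 14.3 to 9.23 FPKM (-0.58).

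These 3 were the listed members of a list of 19 astrocyte markers, and all were lower, with a summed level of 98.5 FPKM in NT and 46.8 FPKM in siKlf6. Gfap, Aqp4, Aldh1l1 and Slc1a2, which define astrocytes more closely, were not listed. Of 15 microglia markers none was listed, and of 15 neuronal markers the neurofilament gene Nefl was listed, from 3.85 to 1.88 FPKM (-0.75). The part of other cell types in these differences was not tested.

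Transcription, chromatin and RNA regulators were lower in 8 of 13 rows, beside 51 of all 112 rows, with a median of -0.57. Sox10, which activates myelin genes, went from 42.1 to 25.9 FPKM (-0.68), and lies on chromosome 15 at 78985343 to 78994920 (minus strand, NCBIM37). Dbx2, a homeobox factor of the ventral neural tube, went from 26.6 to 17.2 FPKM (-0.60), and Ing1, a reader of methylated histone H3, from 36.5 to 24.4 FPKM (-0.56). The nuclear protein Trnp1 went from 4.38 to 2.36 FPKM (-0.68) and the zinc finger gene Zfp2 from 10.7 to 6.87 FPKM (-0.57).

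Over a list of 32 factors of neural and oligodendrocyte development, these 5 and Hdac9 were listed. Hdac9, a histone deacetylase, was the higher one, from 2.77 to 4.89 FPKM (0.64). Zcchc12, a transcriptional coactivator, had the largest higher difference of the single-gene rows above, from 14.2 to 36.1 FPKM (1.29).

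Egr1 and Arc were the listed members of 20 immediate-early genes, which respond rapidly to growth factor and activity signals. Egr1, a zinc finger factor, was at 9.01 FPKM in NT and 21.9 FPKM in siKlf6 (1.20), and Arc, a cytoskeleton-associated protein, at 4.03 and 7.11 FPKM (0.69). Fos, Fosb, Junb and the Nr4a genes of the same list had no row.

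Small proteins with an IQ motif were higher wherever listed, and whether each binds calmodulin was not examined. Nrgn (neurogranin) was at 3.87 FPKM in NT and 8.97 FPKM in siKlf6 (1.03), Pcp4 at 4.83 and 10.3 FPKM (0.95), and Pcp4l1 at 7.87 and 14.6 FPKM (0.81). These were 3 of a list of 5 small proteins, with Gap43 and Pcp2 not listed. The genes lie on separate chromosomes, Nrgn on 9, Pcp4 on 16 and Pcp4l1 on 1.

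Other calcium genes differed in both directions. Rcan2, an inhibitor of the calmodulin-dependent phosphatase calcineurin, was at 7.06 and 11.2 FPKM (0.60), and Anxa5, a calcium-dependent phospholipid binding protein, at 2.69 and 4.93 FPKM (0.68). Eef2k, a calmodulin-dependent kinase that slows protein synthesis, was at 5.93 and 3.61 FPKM (-0.59). S100a10, an EF-hand protein that partners annexin A2, had one of the largest lower values, from 61.6 to 27.7 FPKM (-1.13). Over a list of 28 calcium and calcineurin genes, Rcan2 and Eef2k alone were listed. Nrgn and Rcan2 were also the listed members of 18 genes known to respond to thyroid hormone, and both were higher in siKlf6.

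Extracellular matrix and its receptors had the highest share of rows in one direction among groups of 10 or more rows. In this group 11 of 12 rows were higher, beside 61 of all 112 rows, with a median of 0.54. Of these 11, 5 reached a 1.5-fold difference, beside 42 of all 61 higher rows. Fbln2, a fibulin of elastic fibers, was at 4.07 FPKM in NT and 8.45 FPKM in siKlf6 (0.90), and Fbn2, the fibrillin of embryonic microfibrils, at 7.35 and 13.4 FPKM (0.78). Itga8, an integrin chain, was at 20.1 and 32.5 FPKM (0.67), Lama4, a laminin chain of vessel basement membranes, at 7.80 and 11.8 FPKM (0.54), Antxr2, a receptor for laminin and collagen IV, at 3.54 and 5.91 FPKM (0.61), and Tns3, which links integrins to actin, at 35.6 and 51.9 FPKM (0.53). The exception was the collagen chain Col9a1, named after its values had been seen, at 1.69 and 0.580 FPKM (-0.77). A list of 47 matrix genes and receptors leaves out Col9a1 and includes Cd36 and Cd93 of another function group. Of that list 8 were listed and 8 were higher, with a median of 0.64. Its members were chosen with earlier results known, so this count is not separate evidence.

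Secreted peptides and vascular surface proteins were higher in 9 of 12 rows, beside 61 of all 112 rows, with a median of 0.57. Apln, the vasoactive peptide apelin, was at 14.5 FPKM in NT and 31.9 FPKM in siKlf6 (1.08), and Adm, the vasodilator adrenomedullin, at 5.42 and 10.6 FPKM (0.86). The binding protein Igfbp4 was at 17.0 and 26.1 FPKM (0.59). Cd36, a fatty acid and thrombospondin receptor, was at 1.19 and 3.21 FPKM (0.94), and Cd93, a C-type lectin-like surface protein, at 4.15 and 6.31 FPKM (0.50). The chemokine Cxcl14 was the reverse, at 15.2 and 8.27 FPKM (-0.81).

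Some of the genes just described also mark vessel-associated cells. Of 15 endothelial markers, Cd93 and Apln were listed, with a summed level of 18.7 FPKM in NT and 38.2 FPKM in siKlf6. Of 15 pericyte and fibroblast markers, Fbln2, Lama4 and Itga8 were listed, with a summed level of 32.0 FPKM in NT and 52.8 FPKM in siKlf6. Pecam1, Cdh5, Cldn5, Pdgfrb and Col1a1, the more restricted markers, were not listed. The members of these marker lists, and of the astrocyte list above, were chosen with earlier results known, so their counts are not separate evidence. The part of such cells in the matrix and peptide values was not tested.

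The ubiquitin pathway was represented by 3 rows, all lower. Nedd4, a HECT-type ubiquitin ligase, was among the most abundant listed transcripts, at 242 FPKM in NT and 95.0 FPKM in siKlf6 (-1.34), which is 60.7% lower. Ndfip2, a membrane adaptor that recruits and activates Nedd4-family ligases, went from 42.6 to 25.8 FPKM (-0.70), and Otud6b, a deubiquitinase, from 27.8 to 18.8 FPKM (-0.54). These were 3 of a list of 21, in which the related ligases Nedd4l, Itch, Wwp1 and Smurf1 had no row.

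Genes of vesicle release and trafficking were lower in 6 of 9 rows, beside 51 of all 112 rows, with a median of -0.53. Cplx1, a complexin that clamps fusion complexes, went from 11.6 to 6.71 FPKM (-0.71), and Homer2, a scaffold of glutamate receptors, from 3.55 to 2.25 FPKM (-0.49). Related genes went opposite ways in the Munc13 family, which primes vesicles for fusion. Unc13b was at 3.69 and 2.24 FPKM (-0.53), and Unc13c at 0.126 and 0.303 FPKM (0.21), a level too low to weigh. Rab3b, a GTPase of regulated exocytosis, was higher, at 35.7 and 61.7 FPKM (0.77).

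Cytoskeletal and kinase genes were split, with 5 of 10 rows lower and 5 higher. The lower ones included the abundant transcripts of Tagln2, an actin-binding protein, from 194 to 127 FPKM (-0.60), and Stmn3, a microtubule-destabilizing stathmin, from 103 to 66.0 FPKM (-0.64). The microtubule-associated gene Mtus1 was higher, from 2.10 to 3.82 FPKM (0.64). Over a list of 34 cytoskeletal genes, 8 were listed, 4 lower and 4 higher.

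Channels and transporters were also split, with 4 of 9 rows lower and 5 higher. The zinc transporter Slc30a4 went from 12.8 to 7.95 FPKM (-0.63), beside the lower Ttyh1 above. The named channel genes that were higher were at 3.09 FPKM or less, with Kcna1 at 0.647 and 1.18 FPKM (0.40), Scn3a at 0.536 and 0.962 FPKM (0.35), and Clic5 at 1.72 and 3.09 FPKM (0.59).

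Metabolic and protein-handling genes were lower in 8 of 12 rows, beside 51 of all 112 rows. Mthfd2l, a mitochondrial enzyme of folate metabolism, went from 13.5 to 6.53 FPKM (-0.94), and Acsl4, which activates long-chain polyunsaturated fatty acids, from 14.3 to 7.78 FPKM (-0.80). The ketone body enzyme Bdh1 went from 27.5 to 18.2 FPKM (-0.57) and the lipid kinase Pip4k2b from 33.7 to 22.5 FPKM (-0.56). Over a list of 31 lipid genes, 4 were listed, and Cd36 was the higher one.

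Besides the row of 2010111I01Rik and Mir24-1 above, the higher metabolic genes were Lars2, Gmpr and Car3. Lars2, the mitochondrial leucyl-tRNA synthetase, had the highest level of all rows, at 512 FPKM in NT and 860 FPKM in siKlf6 (0.75). The purine enzyme Gmpr was at 8.19 and 14.4 FPKM (0.75), and the carbonic anhydrase Car3 at 10.3 and 17.8 FPKM (0.73).

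Values from the OLP comparison were set beside those of iOL. The stages used separate libraries, and FPKM was not compared between their tables. Rows listed at both stages numbered 50, which is 44.6% of the iOL rows and 18.2% of the OLP rows, and the remaining 62 iOL rows had none in OLP. The direction of the shared rows was the same in both tables.

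The shared rows were unevenly spread over the function groups. All 3 ubiquitin rows, 7 of 9 vesicle rows and 8 of 13 transcription rows were also listed in OLP, against 1 of 12 secreted and vascular rows and 4 of 12 matrix rows. Adm was the one secreted peptide listed at both stages. Sharing also followed direction, with 34 of the 51 lower rows and 16 of the 61 higher rows listed in OLP. The ubiquitin, vesicle and transcription groups were mostly lower, and the secreted and matrix groups mostly higher, so function and direction were not separated. The difference between groups was not tested, since both tables hold selected rows.

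Among the 34 lower shared rows, 33 had a larger difference in OLP, with medians of -0.60 in iOL and -0.87 in OLP. Nedd4 was at -1.34 in iOL and -2.17 in OLP, where it went from 252 to 54.9 FPKM. Dbx2 was at -0.60 in iOL and -1.41 in OLP, and Mthfd2l at -0.94 and -1.45. Ndrg2 was the exception, at -1.35 in iOL and -0.86 in OLP, where it went from 13.5 to 6.94 FPKM.

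Among the 16 higher shared rows, 10 had a larger difference in OLP, with medians of 0.71 in iOL and 0.82 in OLP. Nrgn was at 1.03 in iOL and 1.62 in OLP, and Car3 at 0.73 and 1.42. Zcchc12 was the reverse, at 1.29 in iOL and 1.14 in OLP. With no spread between cultures, single differences of this size between stages could not be tested.

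**Figure D4:**
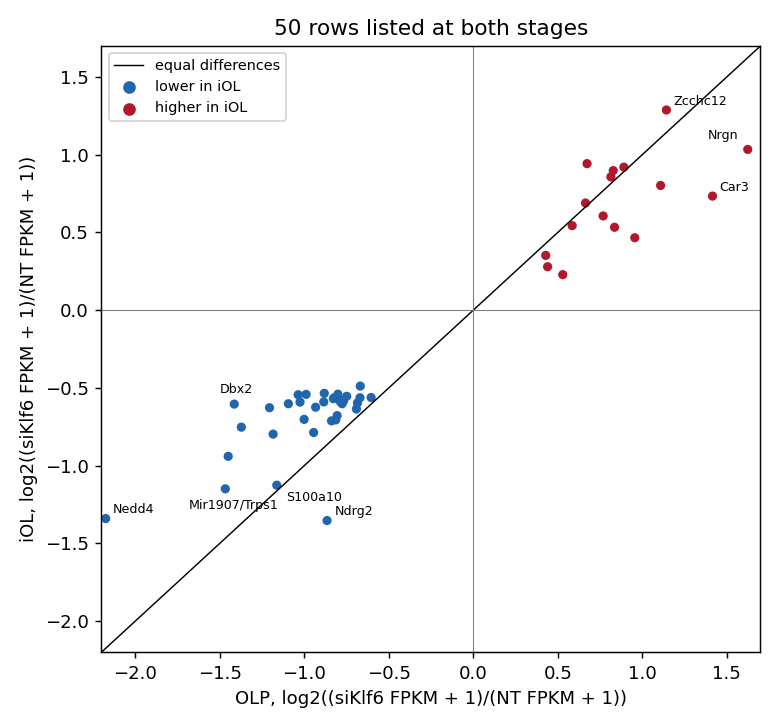
Log2 difference of siKlf6 over NT in OLP (x axis) and iOL (y axis) for the 50 rows listed at both stages, each point being a row and the line marking equal differences. Lower rows (blue) lie above the line except Ndrg2, and higher rows (red) lie on both sides of it.

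Rows listed only in iOL included Sox10, Plxnb3, Gpr37l1, Egr1, Apln, Cd36, Pcp4, Pcp4l1, Fbn2 and Itga8. Of the 62 rows without an OLP row, 17 were lower, with a median of -0.67, and 45 were higher, with a median of 0.63. The 17 lower rows included 4 of the 10 rows grouped with glial membrane proteins and receptors, which made up 8 of all 51 lower rows. The 45 higher rows included 8 secreted and vascular rows and 7 matrix rows. Among all 61 higher rows these groups had 9 and 11 rows, so the counts do not set the rows listed only in iOL apart by function. The absence of a row in OLP does not give the value there.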

How the data were processed

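RNA was sequenced from 2 independent cultures per group. Per the study's methods, libraries were made with the Illumina TruSeq RNA kit, adapter-trimmed reads were mapped to mm9 with TopHat, and transcripts were quantified with Cufflinks and compared with CuffDiff under default settings. The submitters' processing notes also name CASAVA 1.8. Strand use in counting is not given in the sources used here, so overlapping genes cannot be told apart.

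The deposited values used here were FPKM, pooled by the authors into 1 value per condition. All 112 iOL rows were marked significant by the authors. Their fold changes, test statistics, p-values and q-values were not used. Total depth is unknown, which leaves the precision of each value unknown.

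Log2 differences were log2((siKlf6 FPKM + 1)/(NT FPKM + 1)), computed in Python 3.11.15 with pandas 2.3.3 and numpy 2.4.6, and the counting was tested on simulated data. Loci came from the NCBIM37 annotation, which placed a single locus for 112 of 118 symbols. Rows with no single locus could not pass the locus filter.

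Genes named were the 10 largest differences in each direction among single-gene rows whose FPKM was 1 or more under NT and under siKlf6 and whose locus spanned at least 500 bp, all listed members of 28 gene lists, all microRNA rows and the genes that the study names. Some genes that this rule and these lists cover are left out of the lists and not reported here. Others were named after their values were seen. The gene list members, function groups and rule were chosen with earlier results of these data known.

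RefSeq promoters matched 83 of 112 rows (74.1%), under the 80% required, so the planned check of GC-box letters in promoters is void. Alternatives were other pseudocounts, filters and fold thresholds.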

Additional observations from a re-analysis of the deposited data

How the results depend on the processing

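The counts of lower (51) and higher rows (61) could not change with a pseudocount of 0.1 FPKM or none, since a constant added to both values keeps the direction. They stayed within 1.5 times of these values when both FPKM had to reach 1 (45 and 41), with loci of at least 500 bp and with single-gene rows. With the 1 FPKM filter the lower rows were the more numerous. At least a 1.5-fold difference was reached by 48 lower and 60 higher rows with either other pseudocount, against 35 and 42, and raising the threshold to 2-fold left 6 lower and 8 higher rows, which follows from a stricter threshold. The median absolute log2 difference of 0.63 was 0.82 with a pseudocount of 0.1 FPKM, 0.86 with none and 0.65 under the filter at 1 FPKM. The 19 genes named for the largest differences kept their sign in all 38 recalculations with another pseudocount, as any constant added to both values must. No paired analysis was possible because the table holds 1 pooled value per condition, and leaving out each replicate was not run for the same reason. The stricter GC-box letters were not run since that check was void. Depth is unknown, so its limits on these values cannot be given.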
